A study of Homo sapiens with 14 samples.

Results

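The data were the deletion arm of a study of an enhancer near CALCRL, which encodes the calcitonin receptor-like receptor. The cells were teloHAEC, an endothelial line from human aorta that telomerase keeps dividing. The members are all genes of the authors' deposited table for the enhancer deletion, 11835 of the 12202 genes listed in either of the study's tables, taken whatever their values. Cells of the deletion group (3 libraries) were electroporated with Cas9 complexes carrying guide RNAs on both sides of the enhancer. Cells of the control group (3 libraries) received Cas9 with a guide against HPRT, a housekeeping gene of purine salvage, so both groups were electroporated and both carried a cutting complex, aimed at different places. RNA was taken 2 days later as bulk RNA, and a 3' mRNA-seq kit was used that reads only the polyadenylated end of a transcript. The deletion was checked by the study with PCR and a gel, and the share of edited alleles is not given in the sources used here. A second arm treated the same line with siRNA against CALCRL (4 libraries) or scrambled siRNA (4 libraries) for 24 hours. It is used below only as a second set of values for the same genes, and the 2 arms share no library.

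The receptor encoded by CALCRL is a G protein-coupled receptor that binds adrenomedullin and calcitonin gene-related peptide, couples to the stimulatory G protein and raises cyclic AMP. In endothelium, adrenomedullin signalling is known for its part in barrier function, vessel growth and nitric oxide release. An enhancer is a stretch of DNA that raises transcription of a gene from a distance, and cutting on both sides of it can remove it from the chromosome. The study's title names the enhancer as regulated by heat shock factor, the transcription factor that switches on chaperone genes through a repeated short element in their promoters. Chaperone genes were therefore read beside the endothelial and signalling genes.

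For each gene the authors' deposited table gives 1 mean normalised count over the 6 libraries and 1 DESeq2 comparison of the groups (log2 fold change of deletion over control, its standard error SE, and a p-value adjusted over all genes by the Benjamini-Hochberg method). It gives no value of a single library, so whether libraries of the groups overlap could not be seen for any gene, and depth per library is unknown. The level of each group was derived from the mean and the fold change, and all levels below are such derived normalised counts with no spread of their own. A value printed with an SE is a log2 fold change of deletion over control, and a gene is called at an adjusted p under 0.05. The labels do not say whether replicates came from separate cultures, so p-values measure only the spread between these samples, which may be technical. Bulk RNA cannot tell fewer cells of a type from less RNA per cell. Of the markers of other cell types, 3 of smooth muscle, 1 of leukocytes, 3 of epithelium and none of fibroblasts were listed, and only KRT18, an epithelial keratin that cultured endothelium also makes, passed, and it rose from 1874 to 4097 counts (authors' deposited table, adjusted p = 0.00425).

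After the deletion, 1874 of 11830 tested genes passed the test, 15.8% of them. The called genes were split into 875 higher (7.40%) and 999 lower (8.44%). The 2 directions differed in size. In the authors' deposited table the lower genes had a median log2 fold change of -1.59, which is 33.2% of the control, and the higher genes one of 1.04, a 2.06-fold rise. Of the lower genes 318 were at -2 or below on the log2 scale and 117 at -3 or below, while 49 of the higher genes were at 2 or above and 24 at 3 or above. The lower genes had a median mean count of 152, the higher ones of 405. All counts of calls rest on the deposited Wald test: when the statistics were read against Student's t with 4 degrees of freedom no gene passed (1646 had an unadjusted p under 0.05, against 3513 in the deposited table), and none passed after the statistics were divided by their robust SD of 1.88 (534 unadjusted).

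**Figure D1:**
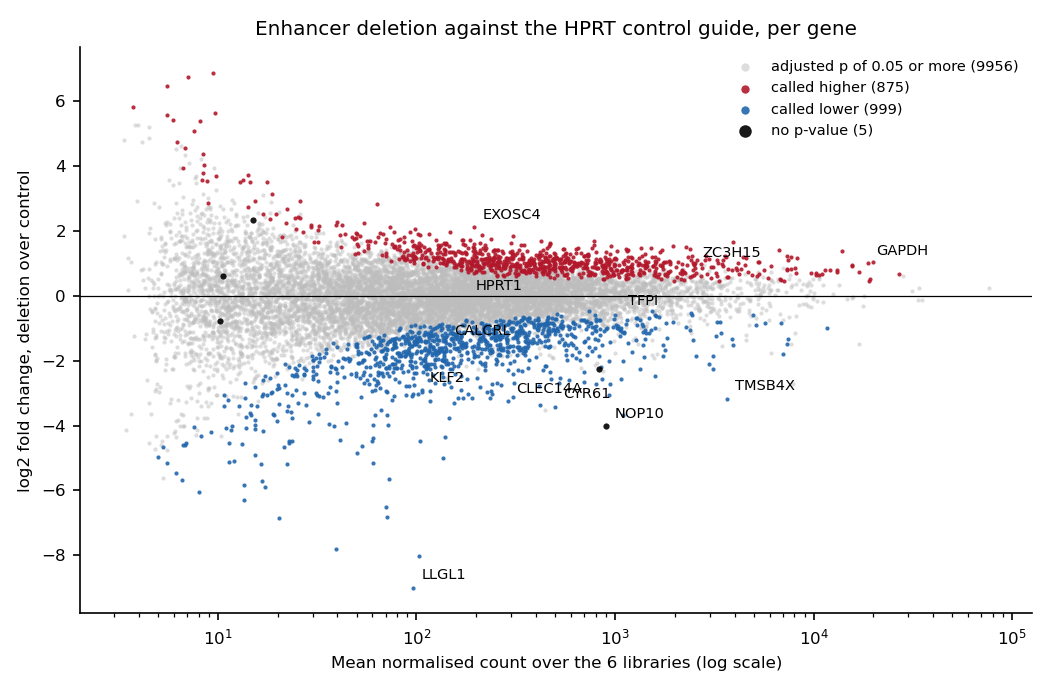
Each point is 1 gene, with its mean normalised count over the 6 libraries on the log-scaled x axis and its log2 fold change of deletion over control on the y axis. Red marks the 875 genes called higher, blue the 999 called lower, grey the rest, black the 5 genes with no p-value, and the blue points reach farther from 0 than the red ones.

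CALCRL itself fell. It went from 207 to 74.8 normalised counts (authors' deposited table, log2 fold change -1.47, SE 0.43, adjusted p = 0.00962), and the 95% interval ran from 20.2% to 64.7% of the control. Once the trend of fold change on the GC content of transcript ends was removed, it was at -1.07 with an adjusted p of 0.0759, no longer past the threshold. HPRT1, the gene cut in the control group, was at 186 counts in the control and 175 after the deletion, with -0.09 (SE 0.50) on the log2 scale of the authors' deposited table. The SE of HPRT1 was 1.44 times that usual for its level, and its interval ran from 47.4% to 187% of the control, so neither a fall nor a rise of it was detectable.

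The region around CALCRL held 27 tested genes that lie wholly within 5 Mb of it. Of these, 1 was called higher and 3 lower, together 14.8%, against 15.8% of all genes. Their median log2 fold change in the authors' deposited table was -0.38, and 19 of the 27 lay below 0. TFPI, which encodes an inhibitor of the start of blood clotting and starts 117 kb from CALCRL in GENCODE 29 (GRCh38), was at 1246 counts in the control and 855 after the deletion and did not pass the test (authors' deposited table, log2 fold change -0.54, SE 0.26, adjusted p = 0.141). Of the others that lie wholly within 1 Mb, only ZC3H15, a zinc finger protein gene, was called, and it rose from 1721 to 3296 counts (authors' deposited table, 0.94, SE 0.23, adjusted p = 0.00198). ITGAV, an integrin subunit that binds matrix proteins, had -0.07 (SE 0.23) as its value in the authors' deposited table, and its sign turned once the GC trend was removed (0.18). NCKAP1, a subunit of the complex that drives branched actin, and NABP1, a protein that binds single-stranded DNA, fell at more than 4 Mb from CALCRL on either side, at -1.21 (SE 0.33) and -0.95 (SE 0.25) in the authors' deposited table. CALCRL had the lowest value of the 4 called genes of this region. MFSD6, which did not pass, lay lower (authors' deposited table, -1.63, SE 0.66, adjusted p = 0.0697).

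Lower-numbered coordinates of chromosome 2 than those of CALCRL held 568 tested genes, of which 29 rose and 46 fell (13.2% called, against 15.8% of all genes, with a median of -0.10), and higher-numbered ones held 206, of which 19 rose and 20 fell (18.9% called, median -0.01). On the X chromosome, where the control guide cuts, 312 genes at lower coordinates than HPRT1 had 15 higher and 19 lower calls (10.9% called, median -0.07). Of the 67 at higher coordinates, 8 rose and 1 fell (11.9% higher against 7.40% of all genes, 1.49% lower against 8.44%, median 0.24).

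**Figure D2:**
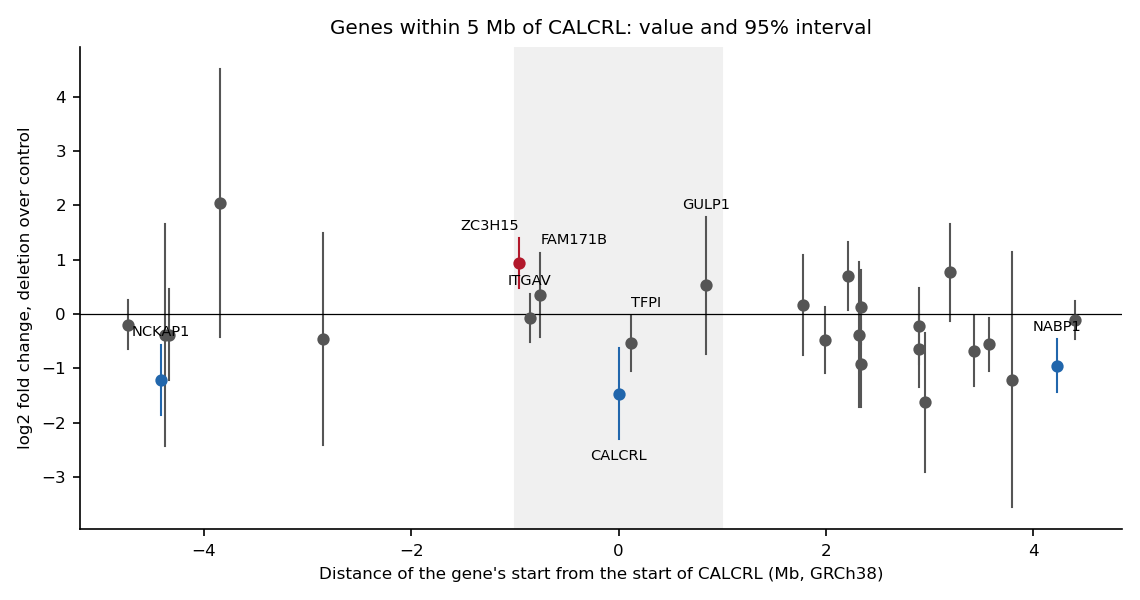
Each point is 1 tested gene within 5 Mb of CALCRL, with the distance of its start from that of CALCRL on the x axis (Mb, GRCh38) and its log2 fold change with a 95% interval on the y axis. Red is called higher, blue lower and grey neither, the shaded band spans 1 Mb on each side (GULP1 starts in it but does not lie wholly within 1 Mb), and the interval of TFPI reaches almost to 0.

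The signalling genes downstream of the receptor were read from a list of 19 tested genes of ligands, G protein, adenylate cyclases, protein kinase A and its partners. None rose, and 3 fell, CALCRL included (15.8% of the list, against 8.44% of all genes called lower). The list's median log2 fold change in the authors' deposited table was -0.20, against 0.00 for all genes. GNAS, the alpha subunit of the stimulatory G protein, fell from 2045 to 976 counts (authors' deposited table, -1.07, SE 0.27, adjusted p = 0.00287). ADCY7, an adenylate cyclase that this G protein activates, fell from 189 to 58.9 (authors' deposited table, -1.68, SE 0.38, adjusted p = 0.000501). The ligand gene ADM, for adrenomedullin, was at 167 counts in the control and 289.9 after the deletion and did not pass (authors' deposited table, 0.79, SE 0.33, adjusted p = 0.0843). The kinase subunits PRKACA (-0.06, SE 0.27) and PRKAR1A (-0.92, SE 0.36) and the target factor CREB1 (-0.02, SE 0.25) did not pass in the authors' deposited table either. NOS3, the endothelial nitric oxide synthase, stood at 450.5 and 415 counts in the 2 groups.

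Most endothelial identity genes did not pass the test. Of 27 tested, 3 fell and none rose, 11.1% lower against 8.44% of all genes, with a median log2 fold change of -0.07 in the authors' deposited table. CLEC14A, a membrane lectin of endothelial cells, had the lowest p-value of the whole table, and fell from 521 to 54.5 counts (authors' deposited table, -3.26, SE 0.41, adjusted p = 2.33e-11). CDH5, the cadherin of endothelial junctions, fell from 1375 to 508 (authors' deposited table, -1.44, SE 0.35, adjusted p = 0.00142). KDR, the main receptor for vascular endothelial growth factor, fell from 456 to 220.4 (authors' deposited table, -1.05, SE 0.31, adjusted p = 0.00966). The transcription factors ERG (-0.47, SE 0.29) and FLI1 (-0.20, SE 0.26) and the receptors TIE1 (0.09, SE 0.20) and FLT1 (0.46, SE 0.27) did not pass in the authors' deposited table. These markers of the labelled cell type had counts in both groups, and VWF, the blood protein that binds platelets, was a low one, at 15.2 and 22.2 counts.

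Genes of coagulation and clot removal lay below 0 in 12 of 13 cases, and 4 of the 13 passed, all lower (30.8%, against 8.44%). Their median log2 fold change in the authors' deposited table was -0.54. PLAT and PLAU encode proteases that activate plasminogen, and PLAUR the cell-surface receptor of PLAU. PLAT fell from 10658 to 4272 counts (authors' deposited table, -1.32, SE 0.36, adjusted p = 0.00512). PLAUR fell from 539 to 109.6 (authors' deposited table, -2.30, SE 0.50, adjusted p = 0.000358). PLAU fell from 264 to 8.21 (authors' deposited table, -5.01, SE 1.46, adjusted p = 0.00944), with an SE 3.83 times that usual for its level and an interval from 0.430% to 22.5% of the control. Both proteases and the receptor were therefore lower after the deletion. THBD, the endothelial receptor of thrombin, did not pass (-0.43, SE 0.22, in the authors' deposited table).

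Inflammatory, shear stress and immediate early genes held further lower calls. Among 13 genes of endothelial inflammation 4 fell and none rose (30.8% lower), among 15 of shear stress and the KLF factors 4 fell and none rose (26.7%), and among 15 immediate early and AP-1 genes 5 fell and 1 rose (33.3% lower), each against 8.44% of all genes. Their medians in the authors' deposited table were -0.30, -0.54 and -0.47. The chemokine CCL2 fell from 113 to 7.21 counts (authors' deposited table, -3.97, SE 0.72, adjusted p = 6.89e-06), and the neutrophil attractants IL8 and CXCL1 fell from 129.9 to 28.0 and from 182 to 58.8. NFKBIA, the inhibitor of NF-kB that this factor itself induces, fell from 589 to 149 (authors' deposited table, -1.98, SE 0.47, adjusted p = 0.00108). NFKB1, a subunit of the factor, did not pass (-0.30, SE 0.32, in the authors' deposited table), nor did the adhesion molecule ICAM1 (-0.37, SE 0.64).

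KLF2, the transcription factor that laminar flow induces in endothelium, fell from 188 to 24.8 counts (authors' deposited table, -2.92, SE 0.52, adjusted p = 6.25e-06). Its relative KLF4 fell from 29.7 to 3.51 (authors' deposited table, adjusted p = 0.0371) and KLF10 from 142 to 52.9 (adjusted p = 0.0412), and both calls were lost once the GC trend was removed (adjusted p = 0.0665 and 0.128). KLF6 stood at 1536 and 1607. JUNB, an AP-1 subunit, fell from 60.9 to 6.99 (authors' deposited table, -3.12, SE 0.79, adjusted p = 0.00235), and MYC, a growth-promoting transcription factor, from 179.8 to 35.0 (-2.36, SE 0.54, adjusted p = 0.00074). DUSP1, DUSP4 and DUSP6, phosphatases that switch off MAP kinases, fell, with log2 fold changes of -1.51, -1.11 and -1.02 in the authors' deposited table, the first of them no longer past the threshold without the GC trend (adjusted p = 0.0759). The AP-1 subunits JUN (0.01, SE 0.27) and FOSL1 (0.00, SE 0.30) did not pass in the authors' deposited table. IER3 was the 1 member to rise, from 569 to 1033 (authors' deposited table, adjusted p = 0.0169).

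Many messages of these lists are known to be short-lived through AU-rich words near their 3' end, the part of the transcript that this assay reads. The word TATTTAT was searched on the transcript strand in the last 500 bases of each gene's transcript (GENCODE 29, GRCh38). Of the 17 genes called lower in the 4 lists above from coagulation to AP-1, 6 hold it. The pieces below are shown because they come from called genes of each kind that hold the word (capitals), a plasminogen activator, a chemokine, the NF-kB inhibitor and a MAP kinase phosphatase, and each is a stretch of 29 bases within those last 500.
PLAU: ttcactattttTATTTATatttttgtaat
CXCL1: atgtcagttgtTATTTATtgaaatgattt
NFKBIA: accacattttaTATTTATtgtgcttcgag
DUSP1: tgtttgctgatTATTTATgacctgaaata
Of all genes with an annotated end, 13.6% hold the word, of the lower genes 17.8%, of the higher genes 8.17% and of the genes not called 13.7%. Genes with the word are poor in GC, so the share was also read within 5 groups of equal size by GC content. From the group lowest in GC to the highest, the word stood in 24.7%, 20.5%, 14.4%, 10.1% and 12.5% of the lower genes and in 27.2%, 16.1%, 10.5%, 7.97% and 5.71% of the genes not called. The lower genes thus held it more often in 4 of the 5 groups and less often in the 1 poorest in GC. The word is a description of these ends and not a measure of message decay, and 11 of the 17 genes hold none, CCL2, IL8, KLF2, JUNB and MYC among them.

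Heat shock factors and chaperones gave 6 higher and 5 lower calls of 28 tested (21.4% and 17.9%, against 7.40% and 8.44%), and a median of 0.04 in the authors' deposited table. The higher genes were DNAJB1, a co-chaperone of HSP70 (from 537 to 1238 counts in derived level, adjusted p = 0.00149 in the authors' deposited table), the small heat shock protein HSPB1, STIP1, HSP90AA1, HSPH1 and the factor HSF1. The lower ones were HSPE1, the co-chaperonin of mitochondria, AHSA1, which activates HSP90, HSPB11, BAG3 and HSPA8, the constitutive HSP70. The authors' deposited table put HSF1 at 0.58 (SE 0.20), and it lay at -0.02 once the GC trend was removed. HSPA1A, the inducible HSP70, did not pass, at 643 counts in the control and 219.8 after the deletion (-1.55, SE 1.06, in the authors' deposited table). It shares most of its sequence with HSPA1B, so the split of reads between the pair is uncertain. Without the GC trend, 5 of the 11 calls were kept, those of DNAJB1, HSPH1, BAG3, AHSA1 and HSPB11.

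The promoters of CALCRL and of 2 chaperone genes that moved in opposite directions are shown, each from 250 bases before to 50 bases after the gene's start (RefSeq, GRCh38.p14, all on the minus strand and written 5' to 3' along the gene). CALCRL is from chr2:187448203-187448502, HSPA8 from chr11:123062087-123062386 and HSP90AA1 from chr14:102086995-102087294. Capitals mark the heat shock element, searched on both strands as GAA, any 2 bases, TTC, any 2 bases, GAA.
CALCRL: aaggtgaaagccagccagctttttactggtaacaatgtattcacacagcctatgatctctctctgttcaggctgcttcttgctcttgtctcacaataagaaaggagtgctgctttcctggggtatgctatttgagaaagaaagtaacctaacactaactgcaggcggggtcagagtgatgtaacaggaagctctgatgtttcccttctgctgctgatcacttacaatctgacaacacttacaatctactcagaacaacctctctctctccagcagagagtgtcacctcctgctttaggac
HSPA8: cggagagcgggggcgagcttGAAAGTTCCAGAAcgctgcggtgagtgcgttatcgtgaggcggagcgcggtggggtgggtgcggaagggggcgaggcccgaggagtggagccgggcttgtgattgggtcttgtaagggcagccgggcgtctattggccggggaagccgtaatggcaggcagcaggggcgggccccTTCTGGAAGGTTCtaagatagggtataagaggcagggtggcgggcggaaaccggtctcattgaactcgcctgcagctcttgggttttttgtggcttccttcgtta
HSP90AA1: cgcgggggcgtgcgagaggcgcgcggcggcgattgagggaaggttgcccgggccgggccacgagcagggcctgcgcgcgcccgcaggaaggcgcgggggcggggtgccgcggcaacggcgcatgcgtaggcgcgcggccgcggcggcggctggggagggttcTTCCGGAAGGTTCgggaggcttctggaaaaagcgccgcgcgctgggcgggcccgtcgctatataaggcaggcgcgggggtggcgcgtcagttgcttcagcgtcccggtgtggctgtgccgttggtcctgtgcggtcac
The element occurs 2 times in the HSPA8 window, once in that of HSP90AA1, and these letters are not in that of CALCRL. Over the chaperone list, 7 of 25 genes with a promoter entry hold it, against 0.490% of all 35116 promoters of the table. Of the 7, HSP90AA1 rose from 20746 to 33114 counts (authors' deposited table, 0.67, SE 0.23, adjusted p = 0.0299) and HSPA8 fell from 4320.1 to 2455 (-0.82, SE 0.28, adjusted p = 0.0312). The other 5, HSP90AB1, CHORDC1, HSPD1, DNAJA1 and DNAJB6, did not pass in the authors' deposited table, with log2 fold changes from -0.44 to 0.60. Without the GC trend the calls of HSP90AA1 and HSPA8 were lost (adjusted p = 0.0569 and 0.0777), and that of CHORDC1 was gained (0.85, adjusted p = 0.00759). Among all genes, the element stood in the promoters of 0.706% of the higher, 0.499% of the lower and 0.444% of the other genes.

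Of 32 genes of break repair, 3 rose and none fell (9.38% higher, against 7.40%), among them RNF168, a ubiquitin ligase that marks chromatin at breaks, and PARP1, which senses them, by 0.73 and 0.64 on the log2 scale in the authors' deposited table. Of 25 interferon-stimulated genes, IFITM2 and IFITM3 rose and none fell (8.0% higher, near the 7.40% of all genes), and both calls were lost without the GC trend (adjusted p = 0.286 and 0.161).

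Genes that copy DNA held more higher than lower calls. Of 36 tested, 8 rose and 2 fell (22.2% higher, against 7.40%), with a median of 0.07 in the authors' deposited table. MCM3, MCM4, MCM5 and MCM7, subunits of the replicative helicase, rose to log2 fold changes from 0.94 to 1.33 in the authors' deposited table, and CDT1, which loads that helicase, rose from 79.3 to 264 counts (1.74, SE 0.40, adjusted p = 0.000882). MCM2, a subunit of the same helicase, fell from 250.3 to 39.9 (authors' deposited table, -2.65, SE 1.00, adjusted p = 0.0495), with an SE 2.74 times that usual for its level. One complex thus held calls in both directions. Without the GC trend MCM7 was lost (adjusted p = 0.120) and 7 of the 10 calls were kept. Of 36 mitosis genes 4 rose and 2 fell (16.7% called, near the 15.8% of all genes), with TOP2A, which untangles DNA, up at 0.78 (SE 0.26) and CENPA, the histone of centromeres, down at -3.04 (SE 0.49) in the authors' deposited table.

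Of 17 Notch genes, 3 fell and none rose (17.6% lower, against 8.44%), namely ADAM10, the protease that cuts the receptor first, HES1, a target, and NCSTN, a subunit of the second protease. ADAM10 fell from 733 to 319 counts (authors' deposited table, -1.20, SE 0.28, adjusted p = 0.000939), and HES1 from 299 to 135 (adjusted p = 0.0180, and 0.0731 without the GC trend). The receptors NOTCH1 (-0.59, SE 0.40) and NOTCH4 (0.51, SE 0.30) did not pass in the authors' deposited table. Of 22 BMP and TGF-beta genes, 3 fell and 1 rose (13.6% and 4.55%, against 8.44% and 7.40%). BMP6, a ligand, fell from 530.4 to 177 (authors' deposited table, -1.58, SE 0.33, adjusted p = 0.000164) and TGFBR2, a receptor, from 855 to 297 (-1.52, SE 0.40, adjusted p = 0.00409). ACVRL1, the endothelial receptor of BMP9, rose from 1176 to 2421 (authors' deposited table, adjusted p = 0.00744, and 0.0651 without the GC trend). Of 12 nitric oxide and endothelin genes, 3 rose and 1 fell (25.0% and 8.33%, against 7.40% and 8.44%). GCH1, which makes the cofactor of nitric oxide synthase, fell from 43.6 counts to a level under 3 (authors' deposited table, adjusted p = 0.00318). DDAH1, which clears an inhibitor of that enzyme, and ECE1, which makes endothelin, rose by 0.78 and 0.84 on the log2 scale in the authors' deposited table, ECE1 not without the GC trend (adjusted p = 0.424). The third gene to rise was HSP90AA1, counted among the chaperones too. Without the GC trend 1 gene of this list was called higher and 1 lower.

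Of the remaining lists, the solute carriers (156 tested, 9 higher and 14 lower, 14.7% called) were near the 15.8% of all genes, and 335 ZNF zinc finger genes were below it (17 higher and 7 lower, 7.16% called). The RAB GTPases of vesicle traffic (40 tested, 4 higher and 6 lower, 25.0% called), the proteasome subunits (36 tested, 6 higher and 4 lower, 27.8%) and the genes of the unfolded protein and ATF4 response (26 tested, 3 higher and 3 lower, 23.1%) had larger shares, split between both directions. The share called differed by level in 10 groups of all genes by mean count. In the groups that hold the lists' median mean counts, it was 7.35% for the ZNF genes (median 29.2) and 19.2% for the solute carriers (86.8). It was 20.5% for the RAB GTPases (326) and the unfolded protein list (309), and 27.3% for the proteasome subunits (992). The ZNF and proteasome shares were thus near those of all genes at their levels.

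**Figure D3:**
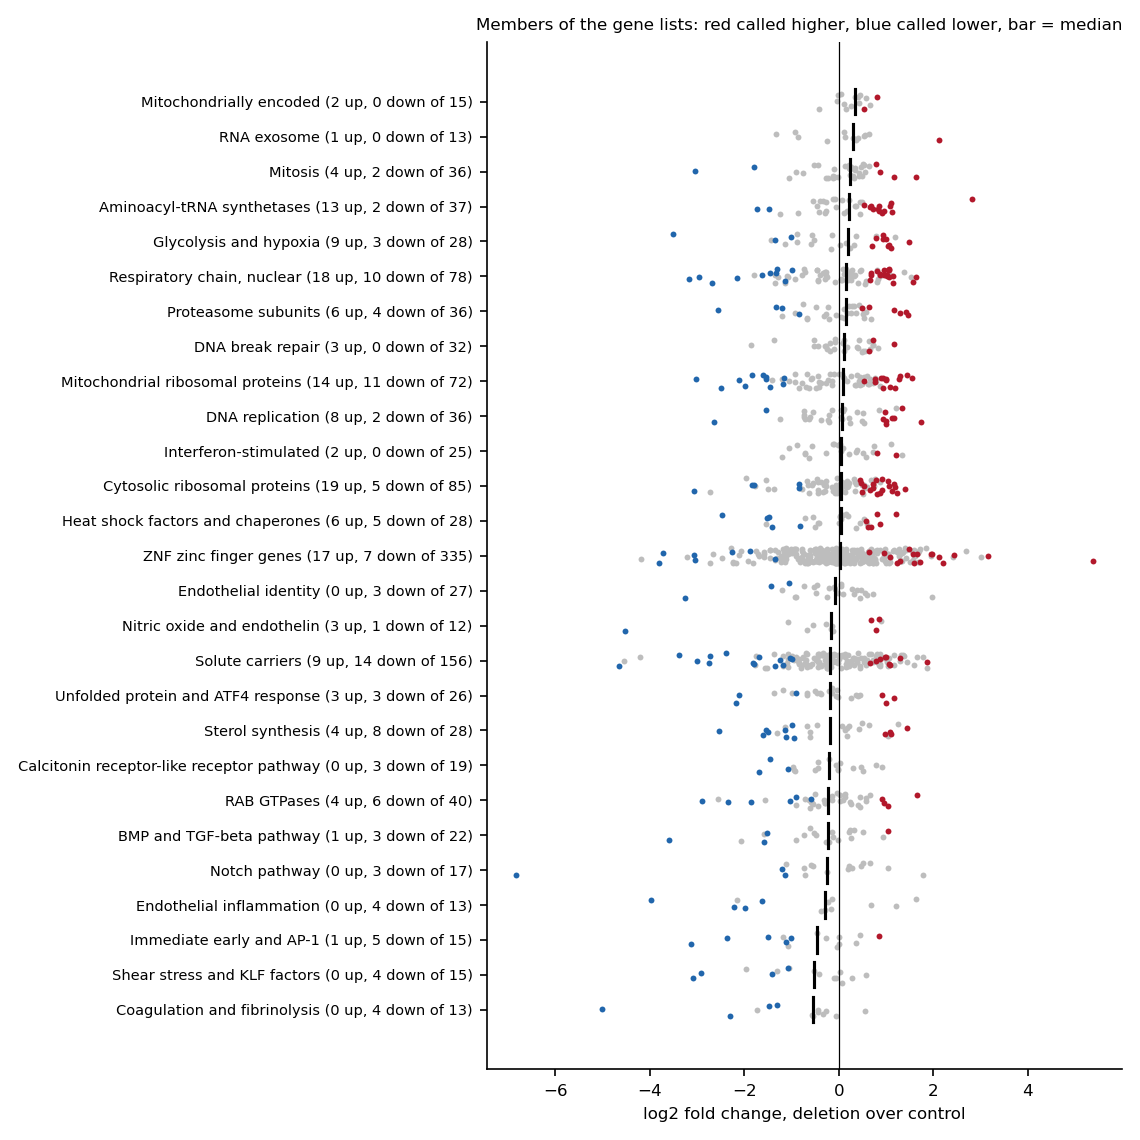
Each row is a list with at least 10 tested genes, each point 1 member at its log2 fold change of deletion over control on the x axis, red if called higher, blue if called lower and grey otherwise, and the black bar is the list's median. Coagulation and shear stress genes have the lowest medians (-0.54 both), and most lists hold calls on both sides of 0.

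Metabolic lists moved in both directions. Of 28 genes of sterol and fatty acid synthesis 8 fell and 4 rose (28.6% lower and 14.3% higher, against 8.44% and 7.40%), with a median of -0.19 in the authors' deposited table. SREBF1, a transcription factor of the pathway, fell from 163 to 27.9 counts (authors' deposited table, -2.55, SE 0.48, adjusted p = 2.49e-05). SCD, which desaturates fatty acids, fell from 2039 to 717 (authors' deposited table, -1.51, SE 0.30, adjusted p = 6.89e-05). The mevalonate enzymes MVK, PMVK and MVD rose by 1.45, 1.09 and 0.98 on the log2 scale in the authors' deposited table, and none of these 3 passed without the GC trend (adjusted p = 0.0819, 0.258 and 0.630). NSDHL, which rose too (1.09, SE 0.34, in the authors' deposited table), was still called there (adjusted p = 0.0110). The falls of SREBF1 and SCD were also still called (adjusted p = 6.58e-07 and 0.000769). Those of ACLY, INSIG1 and STARD4 were lost (adjusted p = 0.0897, 0.0970 and 0.0998), and 6 of the 12 calls were kept.

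Of 28 genes of glycolysis and hypoxia, 9 rose and 3 fell (32.1% higher, against 7.40%), with a median of 0.19 in the authors' deposited table. The glycolytic enzymes GAPDH, ENO1, TPI1, PKM and ALDOA rose by between 0.93 and 1.10 on the log2 scale in the authors' deposited table, GAPDH from 12507 to 25075 counts and ENO1 from 10776 to 20603. HK2, a hexokinase, fell from 122 to 10.7 (authors' deposited table, -3.51, SE 0.77, adjusted p = 0.00039), while its relative HK1 rose from 790.2 to 1372. SLC2A1, the glucose transporter, fell from 187 to 73.0 (authors' deposited table, adjusted p = 0.0152). Without the GC trend 4 of the 12 calls were kept, those of TPI1, GPI, HK2 and SLC2A1. GAPDH (adjusted p = 0.233), ENO1 (0.134), PKM (0.214), ALDOA (0.416) and HK1 (0.228) were lost.

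Translation and energy genes had more calls than all genes together. Of 85 cytosolic ribosomal protein genes 19 rose and 5 fell (22.4% higher, 5.88% lower), of 72 mitochondrial ones 14 rose and 11 fell (19.4% and 15.3%), of 37 aminoacyl-tRNA synthetases 13 rose and 2 fell (35.1% and 5.41%), and of 78 nuclear genes of the respiratory chain 18 rose and 10 fell (23.1% and 12.8%), against 7.40% of all genes higher and 8.44% lower. Their medians in the authors' deposited table were 0.05, 0.08, 0.21 and 0.15. The synthetases AARS, FARSB and NARS rose by 1.10, 0.96 and 0.67 on the log2 scale in the authors' deposited table. In the respiratory chain, NDUFA11 and NDUFS8 of complex I rose by 1.57 and 1.63 on the log2 scale, while SDHB of complex II and NDUFB3 of complex I fell, at -3.16 (SE 0.47) and -2.97 (SE 0.64) in the authors' deposited table. The genes of these lists have high counts, and the share of all genes called grew with the mean count, from 3.63% in the lowest of 10 groups by mean count to 27.3% in the highest. Named processed pseudogenes, near-identical copies that can share reads, exist for 78 of the 85 cytosolic ribosomal genes, so their values are uncertain. Without the GC trend, 12 of the 24, 14 of the 25, 10 of the 15 and 16 of the 28 calls were kept, NDUFS8 not among them (adjusted p = 0.103). The mitochondrially encoded genes, 15 tested, gave 2 higher calls and none lower (13.3% called, against 15.8% of all genes) and a median of 0.34.

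The next 24 genes are the 12 highest and 12 lowest called ones with a mean of 100 or more and over 3 counts in both groups, so genes near 0 in one group, described after them, are not among them. The highest ran from 1.71 to 2.13 in the authors' deposited table and the lowest from -5.01 to -3.16. EXOSC4, a subunit of the RNA exosome, was the highest and rose from 72.9 to 319 counts (authors' deposited table, 2.13, SE 0.47, adjusted p = 0.000387). In that table the exosome's other 12 subunits and cofactors tested gave no call. Without the GC trend EXOSC4 was still called (adjusted p = 0.0226). Calls were gained there by EXOSC5, lower (-1.82, adjusted p = 0.0116), and SKIV2L2, higher (0.76, adjusted p = 0.0462). ZNF787, a zinc finger gene, rose from 60.4 to 235 (authors' deposited table, adjusted p = 5.17e-05), and OSGIN1, a gene induced by oxidative stress, from 91.1 to 334 (adjusted p = 0.000527). NOSIP, a protein that binds nitric oxide synthase, rose from 134 to 481 (authors' deposited table, adjusted p = 0.00139). The others of the 12 were GCAT, C17orf59, NCDN, RNPEPL1, CDT1, B3GNT1, the small RNA gene SCARNA22 and ZNF444, the last lost without the GC trend (adjusted p = 0.225). The kit reads polyadenylated ends only, so the counts of SCARNA22 may not give the level of that small RNA. The lowest p-values among higher genes were those of KIF22, a kinesin of chromosomes, ARAP3, ZNF787, SSU72 and SSRP1, a histone chaperone.

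The 12 lowest by this rule were PLAU, PNMA1, GNB2, PXDC1, CD9, CYR61, SEC61G, OAT, CLEC14A, SRP19, TMSB4X and SDHB. CYR61, a secreted protein of the matrix, fell from 911 to 85.5 counts (authors' deposited table, -3.41, SE 0.48, adjusted p = 5.16e-09). TMSB4X, the actin-binding thymosin, fell from 6558 to 726 (authors' deposited table, -3.18, SE 0.74, adjusted p = 0.000961). CD9, a tetraspanin of the cell surface, fell from 2045 to 161 (authors' deposited table, -3.67, SE 0.94, adjusted p = 0.00292). GNB2, a beta subunit of G proteins, fell from 266 to 13.1 (authors' deposited table, -4.34, SE 0.65, adjusted p = 3.82e-08). SEC61G and SRP19 belong to the route by which proteins enter the endoplasmic reticulum. The lowest p-values after CLEC14A were those of ARPC3, a subunit of the actin-branching complex, PODXL, a sialomucin of the cell surface, CYR61 and CHMP5. PODXL fell from 5139.5 to 1067 (authors' deposited table, -2.27, SE 0.31, adjusted p = 2.34e-09).

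**Figure D4:**
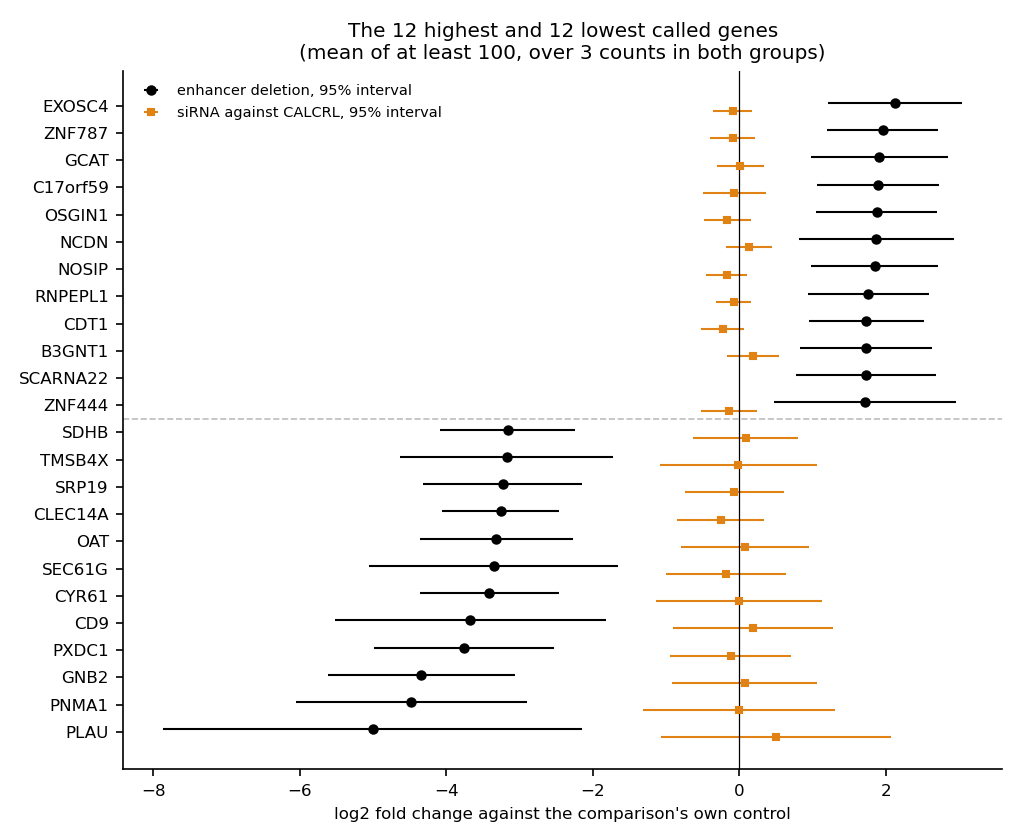
The 12 highest and 12 lowest called genes at a mean of 100 or more and over 3 counts in both groups are drawn by row, with the log2 fold change against the control of the same arm on the x axis and 95% intervals as bars, black for the deletion and orange for siRNA against CALCRL. The orange values run from -0.25 to 0.50 in the rows measured. Their bars are wider for the 12 lowest genes (SE up to 0.80) than for the highest ones (SE up to 0.22).

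In 5 further genes the level after the deletion was 3 normalised counts or less while the mean over the 6 libraries was at least 50. LLGL1, a polarity gene, stood at 193 counts in the control, and the upper end of its 95% interval was 1.26% of that level. For LINC00116 (control 205) the upper end was 2.43%, for NCSTN (control 140.4) 5.15%, for C5orf15 (control 139) 6.12% and for CECR5 (control 142) 7.43%. All 5 were called lower in the authors' deposited table, with adjusted p-values from 5.49e-08 to 4.26e-05. No gene met the same rule in the control group.

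A part of the genes low after the deletion had a large SE in the siRNA arm, in which neither guide was used. A gene's SE there was divided by the median SE of the genes nearest in level. The ratio was above 2 in 144 of 971 lower genes (14.8%), in 1 of 843 higher genes (0.119%) and in 0.760% of the genes not called. It was above 2 in 12 of the 12 lowest genes named above and in none of the 11 highest that the siRNA table lists, and in the 5 genes near 0 it ran from 2.86 to 4.93. None of these 12 and 11 was called under siRNA. Among other lower genes named above, the ratio was over 2 in several. They include PLAUR (4.51), PODXL (3.72), BAG3 (2.76), CHMP5 (2.63), KLF2 (2.54), CCL2 (2.49), MYC (2.36) and HK2 (2.13). The ratio was under 2 in others, such as NFKBIA (1.31), JUNB (1.29), CALCRL (1.22) and CDH5 (1.08). In the siRNA arm TMSB4X was at -0.01 with an SE of 0.55, and CYR61 at -0.01 with an SE of 0.58, both in the authors' deposited table. Without all genes of that kind, 1665 called genes remained, 839 higher and 826 lower. Its part in the falls was not tested.

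A large SE went with low values in the deletion arm too. Chosen after seeing the values, 102 of 8431 genes with a mean of at least 50 had an SE over 2 times the usual, and 100 of the 102 lay below 0, with a median log2 fold change of -1.63 in the authors' deposited table. Of these, 22 were called lower and none higher. The 22 include the 5 genes near 0, with ratios from 2.01 (CECR5) to 3.20 (LINC00116). They also include PLAU, CD9, SEC61G and TMSB4X of the 12 lowest genes. The rest of those 12 were under 2, such as CYR61 (1.81) and CLEC14A (1.33). All 30 of the 102 genes with a mean of at least 1000 lay below 0. Among them were S100A6, a calcium-binding protein, from 24929 in the control to 8855 after the deletion (-1.49, SE 0.67, adjusted p = 0.108 in the authors' deposited table), and the ribosomal gene RPS29, from 13702 to 2076 (-2.72, SE 1.09, adjusted p = 0.0667), neither past the test. DESeq2 gave no p-value for 5 genes, which it does where 1 library holds an outlying count. NOP10, a subunit of the enzyme that modifies ribosomal RNA, was one of them, at 1705 counts in the control and 105 after the deletion, and SRPX another, at 1372 and 286. Which library held it could not be read from these values.

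Base composition of the transcript end divided the 2 directions. The median GC content of the last 500 bases was 52.0% in the higher genes, 38.2% in the lower ones and 41.6% in genes not called. From the lowest to the highest of 10 groups by GC content, the share called higher went from 1.98% to 17.7%, the share called lower from 11.3% to 2.84%, and the median log2 fold change in the authors' deposited table from -0.24 to 0.59. Chromosome 19, rich in GC (median 54.2%), had 121 higher and 30 lower calls of 765 genes and a median of 0.36. Chromosome 13 (median GC 34.2%) had 6 higher and 24 lower of 211 and a median of -0.22. After the trend on GC content was removed, 1457 genes were called, 623 higher and 834 lower, and 1094 of them were among the 1874. The calls also moved with level, with 1.69% called higher in the lowest of 10 groups by mean count and 20.5% in the highest.

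**Figure D5:**
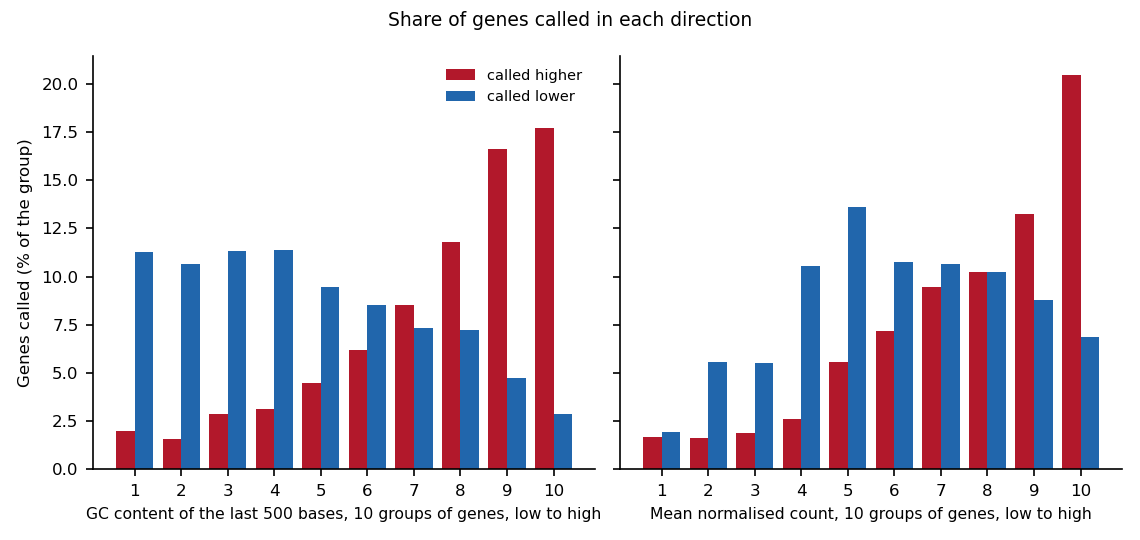
Bars give the percent of genes called higher (red) and lower (blue) in 10 groups of genes of equal size, ordered on the x axis by the GC content of the last 500 bases (left) or by mean normalised count (right). The red bars grow with GC content from 1.98% to 17.7% while the blue ones shrink from 11.3% to 2.84%, and on the right the red bars grow with level from 1.69% to 20.5%.

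Against siRNA to CALCRL, which lowered the same target to -1.56 (SE 0.17) in the authors' deposited table, the deletion gave different values in 1493 of 10891 genes compared (13.7%, by a normal test of the difference adjusted over these genes). The deletion was higher in 707 of them and lower in 786. Of the genes called after the deletion, 699 of 971 lower and 547 of 843 higher ones differed. These genes were picked by the deletion values that also enter the difference, so large shares were largely set in advance. Under siRNA, 29 of these 971 (2.99%) and 18 of these 843 (2.14%) genes were called, against 3.46% of all genes tested there. For CLEC14A the difference was -3.00 (SE 0.51, adjusted p = 4.66e-06) and for CALCRL itself 0.09 (SE 0.46, adjusted p = 0.924). The test of the difference was passed by CLEC14A and not by CALCRL. CLEC14A had been picked for its p-value after the deletion, so its difference was largely set in advance as well. The arms differ in agent, time and control, so these cannot be told apart.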

How the data were processed

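Members of the comparison and the gene lists were chosen with earlier results of these data known. Values came from the authors' deposited tables of 2 comparisons, with no value per library, so no count model, replicate block or leave-one-out fit could be made and the depth of each library is unknown. Per the file headers, each deposited table gives a mean normalised count and, from DESeq2, a log2 fold change with its SE, the Wald score, and p-values before and after adjustment. Numbers with decimal commas were read as such. The genome build hg19 and edgeR 3.24.3 are named in the submitters' processing notes, with no role given, and the aligner, annotation and filters are not given in the sources used here. No gene coordinates are therefore printed, other than promoters from RefSeq's table.

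The statistic equalled the fold change over its SE, and the adjusted p-values a Benjamini-Hochberg adjustment over the tested genes, to within rounding. Group levels, 95% normal intervals and the difference between the arms (normal test, adjusted over 10891 genes) were computed in Python 3.11.15 (numpy 2.4.6, scipy 1.17.1, pandas 2.3.3) and tested on simulated data. GC content came from GENCODE 29 (GRCh38), matched by ID for 11630 genes, for the final 500 bases of the transcript whose 3' UTR is longest. Its trend was removed by lowess with a span of 0.3 (statsmodels 0.14.6). Promoters matched 9171 genes by symbol.

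Genes were named by a rule: CALCRL, TFPI, HPRT1, genes wholly within 1 Mb of CALCRL, the 12 highest and 12 lowest called genes at a mean of 100 or more and over 3 counts in both groups, the 5 lowest p-values in each direction, genes near 0 in one group and 2 called genes of each direction per list, 124 in all. Other members of the 32 lists are named as examples, and the DUSP1, CXCL1, NFKBIA, PLAU, HSPA8 and HSP90AA1 sequences were chosen after their values were seen. Alternatives were a Student t reference, statistics divided by their robust SD, removal of the GC trend, centring, minimum means, an adjusted p under 0.01, and, added after seeing the data, leaving out genes with processed pseudogenes or with a large siRNA SE. Some genes and 1 of the 32 lists are not reported here, and counts over a list include its members that are not named.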

Additional observations from a re-analysis of the deposited data

Results flagged for a closer look

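A test of the difference between the arms set apart 1493 genes whose log2 fold change after the enhancer deletion differed from that under siRNA against CALCRL. The 5 with the lowest p-values were SSR1, RRAGC, SERBP1, ARPC3 and COMMD6. SSR1, a subunit of a complex at the endoplasmic reticulum's translocon, differed by 1.64 (SE 0.20, adjusted p = 3.45e-12), with 0.15 after the deletion and -1.49 under siRNA in the authors' deposited tables. RRAGC, a GTPase of the amino acid sensing route to mTOR, differed by 1.79 (SE 0.23), with 0.67 and -1.13, and SERBP1, an RNA-binding protein of ribosomes, by 1.72 (SE 0.23), with 0.72 and -0.997. In these 3 genes the larger of the 2 values was the fall under siRNA. ARPC3 differed by -2.45 (SE 0.35), with -2.35 after the deletion and 0.10 under siRNA, and COMMD6 by -2.57 (SE 0.43), with -2.54 and 0.03 in the authors' deposited tables. In these 2 genes the fall came after the deletion. With these statistics divided by their robust SD, no gene passed, and 447 had an unadjusted p under 0.05.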

How the results depend on the processing

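No paired analysis was possible because single libraries have no values in these tables, and for the same reason no library could be left out in turn. Under the Student t reference with 4 degrees of freedom and under division by the robust SD, the counts called, called higher, called lower, called in lists and called near CALCRL were all 0, with 1646 and 534 unadjusted p-values under 0.05. CALCRL kept its -1.47 under the first (adjusted p = 0.357), its statistic divided by the robust SD gave an adjusted p of 0.976, and none of the 120 called among the 124 named genes passed under either. Under Student's t the statistics were unchanged and only the reference was wider. The divisor of the other setting was instead taken from the spread of the deletion statistics themselves, 1.88. The same measure of spread was 1.11 for the siRNA statistics. What made the deletion statistics spread more widely was not tested. Removal of the GC trend left 1457 calls and 181 in lists, put CALCRL at -1.07 and left 1 called gene within 1 Mb of it. It turned the sign of 2 named genes that were not called, HPRT1 (0.19) and ITGAV (0.18), and ended 20 of the 120 named calls. At an adjusted p under 0.01, 786 genes passed, 287 higher and 499 lower. Centring on the median of genes with a mean of at least 100 gave 1789 calls, of which 60.6% were lower, against 53.3%. Minimum means of 10 and 50 gave 1893 and 1870 calls, leaving out genes with processed pseudogenes 1541, and leaving out genes with a large siRNA SE 1665. Of the 5 genes near 0, 1 remained at a mean of at least 100 and 2 at 1 implied count. No difference between the arms passed after division by the robust SD, a count of 0 with 447 unadjusted. With 3 libraries in each group, precision is limited, and the median SE was 0.41. In the siRNA arm, with 4 libraries in each group, it was 0.17. What made the SEs of the arms differ was not tested.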
